A study of Mus musculus with 19 samples.

Results

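The phosphatidylserine receptors and bridging proteins described here are 8 genes: the receptors Timd4, Mertk, Axl and Tyro3, the bridging proteins Gas6, Pros1 and Mfge8, and the integrin subunit Itgav. They were chosen by name, and each was read from its 1 probeset with that single gene symbol, so that all 8 were measured among the 19938 genes tested. Gene expression was measured on 19 Affymetrix mouse gene arrays of Kupffer cells (KCs), the resident macrophages of the liver, sorted as Clec4F+ cells from mice 6 to 12 weeks old. Monocyte-derived KCs (mo-KCs) came from KC-DTR mice on day 30 (5 arrays) or day 15 (3 arrays) after 50 ng of diphtheria toxin (DT). KC-DTR mice carry the DT receptor in the Clec4f gene, so DT removes the KCs present at the time, and the cells sorted later came from monocytes that filled the emptied liver. The 11 arrays of embryonically derived KCs (em-KCs) came from WT mice (3 arrays), untreated KC-DTR mice (3 arrays), 1 untreated littermate without the DT receptor, and such littermates 15 or 30 days after the same DT dose (2 arrays each). Values are log2 expression after Robust Multi-array Average (RMA) normalization, 1 array is 1 labelled biological replicate, and the number of arrays limits the precision. In sorted populations such as these, fewer cells that express a gene and less RNA per cell cannot be told apart.

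Dying cells turn phosphatidylserine, a lipid normally kept on the inner side of the membrane, to their surface, where macrophages recognise it and engulf the cell. Some receptors, such as Tim4 (encoded by Timd4), bind the lipid themselves, whereas the TAM receptor kinases Tyro3, Axl and Mertk and the αv integrins reach it through soluble bridging proteins that hold the lipid at one end and the receptor at the other. KCs clear aged blood cells and dying hepatocytes from the sinusoids, and Tim4 is widely used as a marker of long-resident KCs.

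The KC identity of the sorted cells was checked first. Vsig4 lay between 12.71 and 13.03 and Cd5l between 12.32 and 12.79 on all 19 arrays, while Clec4f, the sort marker, spanned 10.66 to 12.29 in day 30 mo-KCs, 12.16 to 12.21 in day 15 mo-KCs and 12.17 to 12.67 in em-KCs. Of 10 KC markers, 2 were called lower at day 30 and 0 at day 15. They were Clec4f, by -1.26 (adjusted p = 1.6e-04 from limma), and the transcription factor gene Spic, by -0.54 (adjusted p = 0.013 from limma), the second named after its values were seen. The arrays were also split into sets that the labels do not describe, by which of the genes Xist and Eif2s3y was higher. In 6 arrays, namely replicates 3 to 5 of the day 30 mo-KCs and all 3 from WT mice, Xist was 8.72 to 9.51 and the Y-linked Eif2s3y 3.30 to 4.28, against 4.07 to 4.53 and 7.53 to 8.06 in the other 13 arrays. The study used male and female mice, but the sources used here state neither sex nor array batch for single samples. Transcripts of other liver cells were present throughout. The mean of 14 hepatocyte markers was 7.62 to 9.09 in day 30 mo-KCs, 7.84 to 8.18 in day 15 mo-KCs and 8.02 to 10.10 in em-KCs, and that of 12 sinusoidal endothelial markers was 9.16 to 10.03, 9.69 to 9.95 and 9.15 to 10.23 in the same order. Results for the members are therefore also given within the sets of 13 and 6 arrays.

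Among the 8 members, Timd4 was the one called between mo-KCs and em-KCs in the limma fit of the 3 classes over all 19 arrays. Other fits also called Axl, Mertk or Pros1 at day 30, as given below. On the log2 scale the Timd4 level (probeset 10375472) was 9.86, 9.69, 9.38, 9.56 and 9.63 on the 5 day 30 mo-KC arrays and 7.88, 8.24 and 8.36 on the 3 day 15 mo-KC arrays. In em-KCs it was 11.99, 11.82 and 11.89 in WT mice, 12.02, 11.70 and 11.97 in untreated KC-DTR mice, 11.96 in the untreated littermate, 11.93 and 12.01 in littermates 15 days after DT, and 11.78 and 11.89 in littermates 30 days after DT. The 3 classes therefore did not overlap: every day 15 array lay below every day 30 array, and every day 30 array lay below all 11 em-KC arrays.

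**Figure D1:**
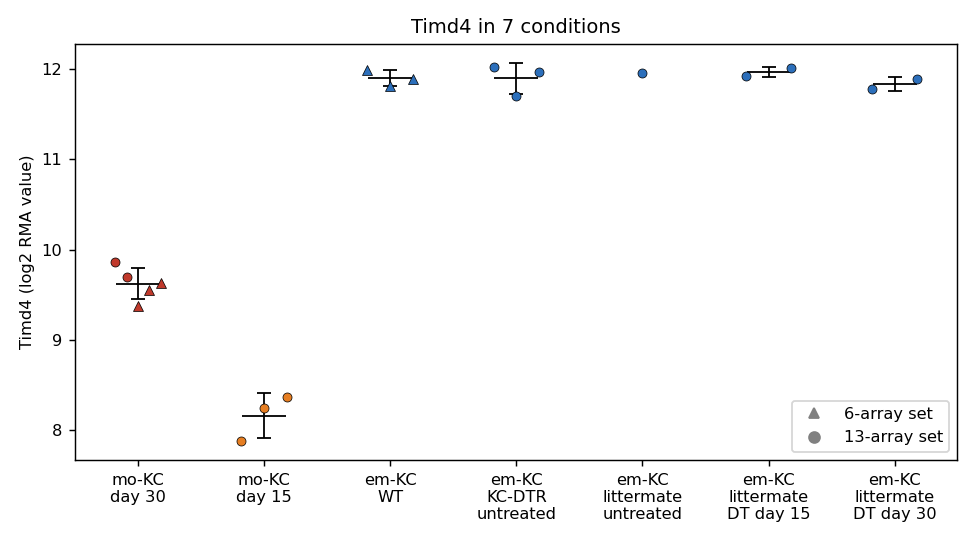
Timd4 on each array (y axis, log2 RMA value) by condition (x axis), with circles for the 13-array set and triangles for the 6-array set; horizontal lines are means and error bars the SD where a condition has more than 1 array. Day 30 mo-KCs lie between 9.38 and 9.86 and day 15 mo-KCs between 7.88 and 8.36, while all em-KC conditions lie between 11.70 and 12.02.

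The mean level of Timd4 was 9.62 ± 0.18 at day 30 (SD, n = 5) and 8.16 ± 0.25 at day 15 (SD, n = 3), against 11.90 ± 0.10 across the em-KCs (SD, n = 11). The day 30 difference from em-KCs was -2.28 on the log2 scale (standard error 0.08, 95% interval -2.46 to -2.11, adjusted p = 2.2e-13 from limma with Benjamini-Hochberg adjustment), 4.86-fold lower. At day 15 it was -3.75 (standard error 0.10, 95% interval -3.96 to -3.53, adjusted p = 4.0e-16 from limma), 13.4-fold lower. Expressed as a share of the em-KC level, mo-KCs held 20.6% (95% interval 18.2 to 23.2) at day 30 and 7.45% (95% interval 6.42 to 8.64) at day 15. By size of the difference Timd4 was number 5 of the 19938 genes at day 30 and number 2 at day 15. Timd4 belongs to the genes that the study itself picked from these arrays, so its direction here is not independent evidence. The study also stained liver cells for Tim4 protein and reported that mo-KCs gained it gradually over time.

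Between the days, Timd4 rose. Its level was higher at day 30 than at day 15 by 1.46 (standard error 0.12, adjusted p = 5.1e-07 from limma), 2.76-fold, and the lowest day 30 array, at 9.38, was above the highest day 15 array, at 8.36. This comparison called 4 of 19938 genes (0.0201%). Besides Timd4 they were the chemokine gene Cxcl13, which was higher at day 30 by 2.57, and the monocyte chemokine receptor Ccr2 and the prostaglandin synthase Ptgs2, which differed by -2.29 and -1.27; these 3 were chosen after their values were seen. With the methods' t-test the Timd4 difference between the days had an adjusted p of 0.653 and no gene was called, since that test takes its spread from the 8 mo-KC arrays alone and gene by gene.

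Timd4 was called in each subset of arrays examined. Within the 13 arrays it was -2.13 at day 30 and -3.75 at day 15, and the rise between the days was 1.62 (adjusted p = 6.2e-05 from limma). Within the 6 arrays, where day 30 mo-KC replicates 3 to 5 are set against the WT em-KCs, it was -2.38 (adjusted p = 4.6e-04 from limma), and the gap between the sets, -0.25, had an adjusted p of 0.457. Against the untreated KC-DTR em-KCs, which share the genotype of the mo-KCs, it was -2.28 at day 30 and -3.74 at day 15, comparisons in which 0.366% and 0.391% of all genes were called. Among em-KCs Timd4 was not called in either comparison made. WT here means the 3 WT arrays and colony the 8 other em-KC arrays. The labels do not say whether the WT mice came from the same colony, and the WT arrays are all of the em-KC arrays in the 6-array set, so mouse source and array set cannot be told apart. The difference was -0.02 for untreated KC-DTR against littermate em-KCs (95% interval -0.29 to 0.24) and -0.01 for WT against KC-DTR colony em-KCs (95% interval -0.26 to 0.23). The 4 littermate arrays after DT averaged 11.90 ± 0.10 (SD, n = 4), the 3 untreated KC-DTR arrays 11.90 ± 0.17 (SD, n = 3), and the WT arrays 11.90 ± 0.09 (SD, n = 3).

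Some monocyte markers also differed. The mean of 8 measured monocyte markers was 6.66 to 7.11 in day 30 mo-KCs and 6.96 to 7.31 in day 15 mo-KCs, against 6.12 to 6.98 in em-KCs, and 1 of the 8 was called higher at day 30 and 2 at day 15. These were Cx3cr1, by 1.16 at day 30 and 2.43 at day 15, and Ccr2, by 2.90 at day 15, named after their values were seen. The median difference of the 8 was 0.37 at day 30 and 0.05 at day 15. Their part in the Timd4 result was not tested. Over the 19 arrays the genes whose level followed Timd4 most closely by Pearson correlation were Apoc1 (r = 0.981), C6 (r = 0.955), Sdc2 (r = 0.955), C2 (r = 0.942) and Xlr (r = 0.941), a description over arrays that share the 3 classes. Because these genes were picked for following Timd4, which separates the classes, their lower values in mo-KCs follow from the choice. They are no further evidence. Log2 differences were -0.76 at day 30 and -1.13 at day 15 for Apoc1 and -3.02 and -3.07 for C2, a complement protease.

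The region around the RefSeq start of Timd4 is shown beside those of the TAM receptors because Timd4 was called between the cell classes and the TAM receptors were not. Each sequence covers 250 bases before and 50 bases after the start (RefSeq, GRCm38.p6), read on the gene's strand, with every GC box (GGGCGG on either strand, overlapping matches included) in capitals. Timd4 lies at chr11:46810549-46810848 on the plus strand, Mertk at chr2:128698665-128698964 on the plus strand, Axl at chr7:25788684-25788983 on the minus strand and Tyro3 at chr2:119799264-119799563 on the plus strand. The start used lies inside the gene, not at its outer end, for Timd4 (outer end 46810786), Axl (25788924) and Tyro3 (119797740).
Timd4: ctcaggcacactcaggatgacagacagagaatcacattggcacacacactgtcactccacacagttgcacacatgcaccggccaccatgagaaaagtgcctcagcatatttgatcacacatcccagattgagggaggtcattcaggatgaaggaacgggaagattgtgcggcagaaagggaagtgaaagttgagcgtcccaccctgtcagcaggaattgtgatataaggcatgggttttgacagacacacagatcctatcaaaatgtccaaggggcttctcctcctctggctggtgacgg
Mertk: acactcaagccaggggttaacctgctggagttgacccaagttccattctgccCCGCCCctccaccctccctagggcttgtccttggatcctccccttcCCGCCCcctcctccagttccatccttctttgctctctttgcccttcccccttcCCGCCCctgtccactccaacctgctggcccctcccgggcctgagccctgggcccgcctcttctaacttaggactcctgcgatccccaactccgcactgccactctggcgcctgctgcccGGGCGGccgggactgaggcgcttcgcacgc
Axl: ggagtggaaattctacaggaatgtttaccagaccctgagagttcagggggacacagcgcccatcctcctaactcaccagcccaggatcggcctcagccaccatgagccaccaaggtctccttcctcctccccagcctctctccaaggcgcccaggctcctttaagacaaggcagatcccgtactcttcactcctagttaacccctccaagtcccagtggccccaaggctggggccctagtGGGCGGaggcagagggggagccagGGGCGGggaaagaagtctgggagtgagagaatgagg
Tyro3: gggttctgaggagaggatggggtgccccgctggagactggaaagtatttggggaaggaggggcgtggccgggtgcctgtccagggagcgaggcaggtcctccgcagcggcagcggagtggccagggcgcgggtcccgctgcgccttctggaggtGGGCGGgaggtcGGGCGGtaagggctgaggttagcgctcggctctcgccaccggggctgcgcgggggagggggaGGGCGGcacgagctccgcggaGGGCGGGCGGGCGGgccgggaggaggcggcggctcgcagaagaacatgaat

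The Timd4 window held no GC box, the one such case among the 8 members, whereas the Mertk window held 4, Axl 2, Tyro3 6, Gas6 4, Pros1 5, Mfge8 4 and Itgav 1. These counts hold for the starts used, and that of Itgav (window chr2:83724147-83724446) also lies inside its gene, which begins at 83722303. Of 32851 mouse promoter windows of the same length, 35.7% held at least 1 GC box. The Timd4 window also had the lowest share of G and C, 50.7%, against 58.3% to 73.3% in the other 7. The exact TATA box letters (TATAAA, 13.6% of all windows, either strand) were in none of the 8 windows. Variants of these letters were not searched for. The PU.1-type motif (GAGGAA, 28.3% of all windows) was in those of Axl, Mfge8 and Itgav, and the nuclear receptor half-site (AGGTCA, 16.3% of all windows) was in that of Timd4. These matches describe letters in a window and are not binding sites.

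None of the other 7 members was called at either day against em-KCs. Timd4 was also the 1 member whose day 30 arrays did not overlap the em-KC arrays, which held for 0.552% of all genes. At day 30 the 1 called member, Timd4, stands against 0.492% of all genes called lower and 0.296% called higher, and at day 15 against 0.311% and 0.191%. In all 7 the 95% interval of the difference lay within 1.5-fold at day 30 and at day 15, as it did in 91.1% and 87.8% of all genes, so a share of 7 of 8 is near the background. With fewer arrays the intervals were wider. At day 30 the interval lay within 1.5-fold in 3 of the 8 members within the 6 arrays (57.1% of all genes), in 5 of 8 within the 13 arrays (92% of all genes) and in 5 of 8 against untreated KC-DTR em-KCs (84.2% of all genes). At an unadjusted p under 0.05, 3 of the 7 (Mertk, Axl and Pros1, all lower) passed at day 30 and 0 at day 15 by limma, where 13% (6.9% lower) and 6.05% (3.06% lower) of all genes did. The methods' t-test called 0 of the 7 at both days after adjustment. Comparisons at both days share the same em-KC arrays.

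**Figure D2:**
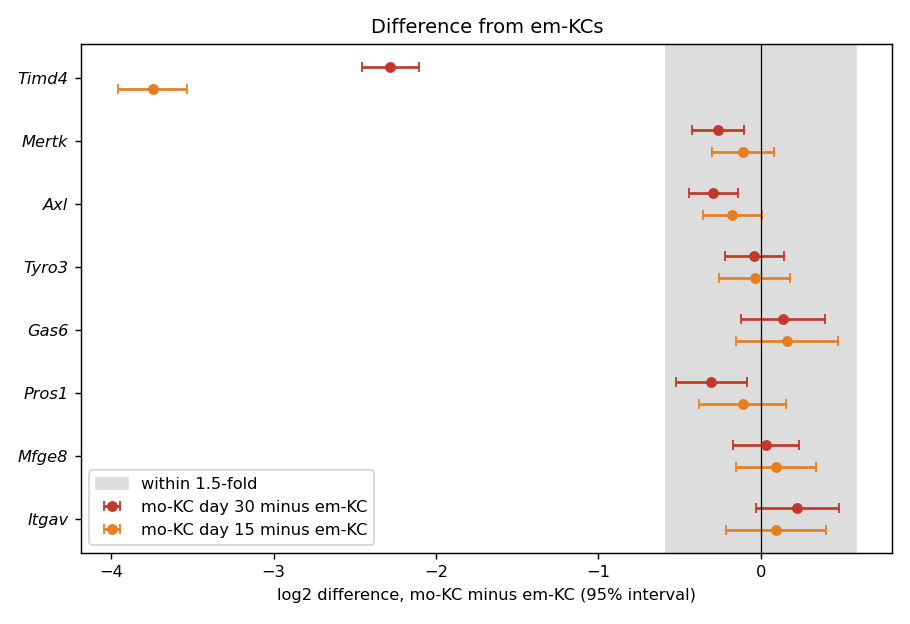
Log2 difference of mo-KCs from em-KCs (x axis) for each member (y axis), with 95% intervals, for day 30 (red, upper) and day 15 (orange, lower); the grey band marks 1.5-fold. Timd4 lies at -2.28 and -3.75, and the intervals of the other 7 members lie inside the band at both days.

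Of the TAM receptors, Mertk and Axl had lower values in part of the day 30 arrays and Tyro3 did not. Mertk, the kinase through which macrophages most commonly take up dying cells (probeset 10475890), was 11.002, 10.97, 10.74, 10.56 and 10.48 in day 30 mo-KCs, in replicate order, and 10.94, 10.88 and 10.88 in day 15 mo-KCs. Its 11 em-KC arrays ran from 10.95 to 11.12 with a median of 10.99. All 3 day 15 arrays lay just below all em-KC arrays, a separation seen in 1.81% of all genes at day 15, yet the difference was -0.11 (95% interval -0.30 to 0.08, adjusted p = 0.950 from limma). At day 30 replicates 1 and 2 lay within the em-KC range and replicates 3 to 5 below it. The day 30 difference was -0.26 (standard error 0.08, 95% interval -0.42 to -0.10), 1.20-fold lower, with an adjusted p of 0.126 from limma.

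Axl, a kinase that requires Gas6 as its ligand (probeset 10561104), was 11.27, 11.44, 11.11, 11.24 and 10.97 in day 30 mo-KCs and 11.27, 11.37 and 11.33 in day 15 mo-KCs, and its em-KC arrays ran from 11.30 to 11.62 with a median of 11.54. Here too day 30 replicates 3 to 5 were the 3 lowest of the 5. Replicate 1, at 11.27, also lay below all em-KC arrays, and replicate 2 lay within their range. The difference was -0.29 at day 30 (standard error 0.07, 95% interval -0.44 to -0.14, adjusted p = 0.059 from limma) and -0.17 at day 15 (95% interval -0.35 to 0.01, adjusted p = 0.849 from limma). The day 30 difference lay next to the threshold and passed it in 5 of 34 alternative settings, among them the fit blocked on array set (-0.29, adjusted p = 0.046 from limma), which called 2.58% of all genes, and trend with robust eBayes (-0.29, adjusted p = 0.040 from limma). It also passed without day 30 replicate 2 (-0.35, adjusted p = 0.017 from limma) and without the untreated littermate (-0.31, adjusted p = 0.040 from limma). Mertk passed in 3 of 34, including the fits without day 30 replicate 1 (-0.33, adjusted p = 0.035 from limma) and without replicate 2 (-0.32, adjusted p = 0.045 from limma). Over all 19938 genes the main fit called 157 at day 30. The fits leaving out each array called 93 to 316, the most without day 30 replicate 2. With trend and robust eBayes that count moved by no more than 1.5-fold.

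Tyro3, the third TAM kinase, known mainly from neurons and dendritic cells (probeset 10475027), spanned 5.05 to 5.59 over all 19 arrays, below the smallest of the 19 array medians, 5.72. Its mean was 5.26 ± 0.13 at day 30 (SD, n = 5) and 5.26 ± 0.07 at day 15 (SD, n = 3), against 5.30 ± 0.18 across the em-KCs (SD, n = 11), and the differences of -0.04 at both days were smaller than the spread between replicates.

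**Figure D3:**
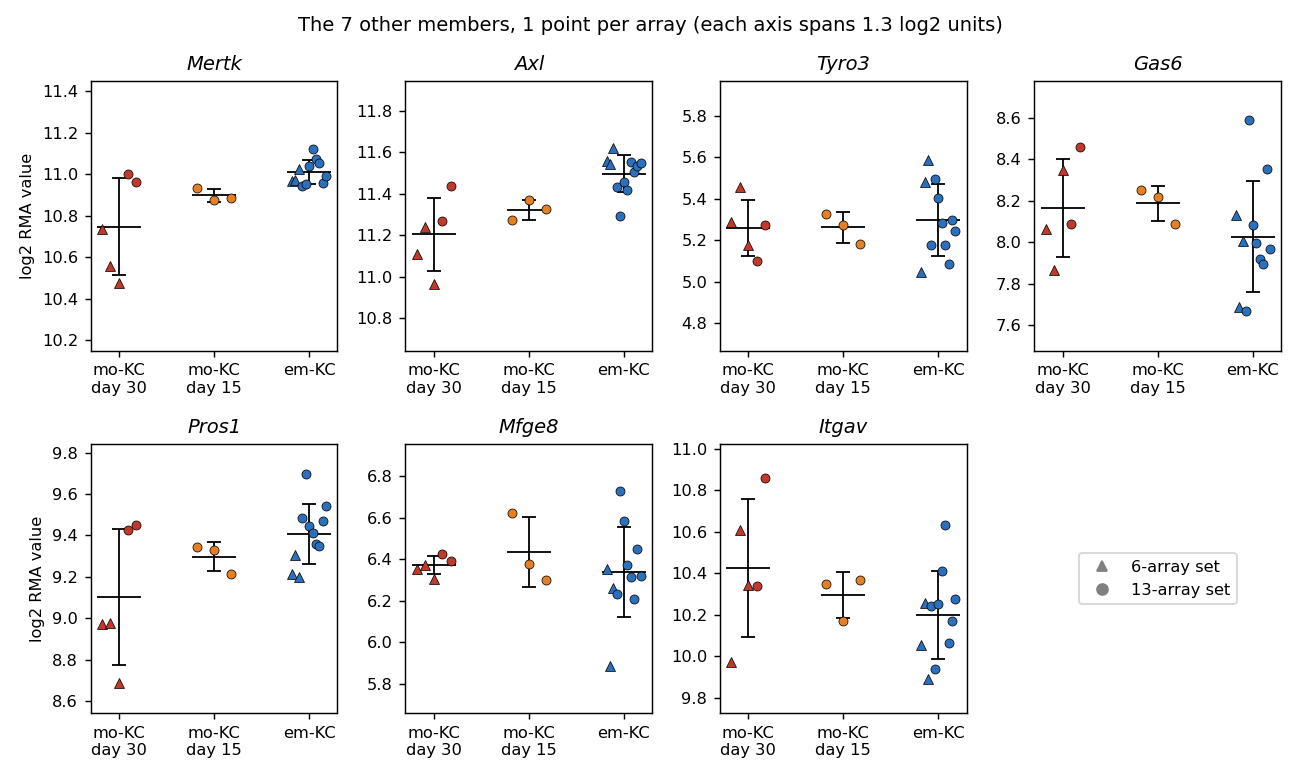
The other 7 members on each array (y axes, log2 RMA value, each spanning the same range) for day 30 mo-KCs, day 15 mo-KCs and em-KCs (x axes), with circles for the 13-array set and triangles for the 6-array set; lines are means and error bars the SD. The triangles of day 30 mo-KCs lie below the circles for Mertk and Pros1, with Pros1 at 8.69 to 8.98 against 9.43 and 9.45.

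Of the bridging proteins, Pros1 showed the same split among the day 30 arrays. Pros1 encodes protein S, a ligand of Tyro3 and Mertk that is also made by hepatocytes and endothelial cells as an anticoagulant. Its level (probeset 10436456) was 9.43, 9.45, 8.97, 8.98 and 8.69 in day 30 mo-KCs and 9.34, 9.33 and 9.22 in day 15 mo-KCs, and em-KCs ran from 9.20 to 9.70 with a median of 9.41. Replicates 1 and 2 of day 30 thus sat within the em-KC range and replicates 3 to 5 below all em-KC arrays. The difference was -0.30 at day 30 (standard error 0.11, 95% interval -0.52 to -0.08, adjusted p = 0.217 from limma) and -0.11 at day 15 (95% interval -0.38 to 0.16, adjusted p = 0.962 from limma). At day 30 it passed in 1 of 34 alternative settings, with the mean of the hepatocyte markers as a covariate (-0.41, adjusted p = 0.006 from limma). That fit called 3.47% of all genes.

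Gas6, the ligand shared by all TAM kinases (probeset 10577164), lay between 7.86 and 8.46 at day 30 and between 8.09 and 8.25 at day 15, inside the em-KC range of 7.67 to 8.59. Differences of 0.14 at day 30 (95% interval -0.12 to 0.40, adjusted p = 0.690 from limma) and 0.16 at day 15 (95% interval -0.15 to 0.47, adjusted p = 0.956 from limma) lay within the spread between arrays. Mfge8, which links phosphatidylserine to αv integrins (probeset 10564713), lay between 6.31 and 6.43 at day 30 and between 6.30 and 6.62 at day 15, also inside the em-KC range of 5.89 to 6.73, with differences of 0.03 at day 30 (95% interval -0.17 to 0.24) and 0.10 at day 15 (95% interval -0.15 to 0.34). The highest array of both genes was the untreated littermate em-KC array, with 8.59 for Gas6 and 6.73 for Mfge8, which also had the highest mean of the sinusoidal endothelial markers, 10.23. Over the 19 arrays the correlation with that mean was r = 0.645 for Gas6, r = 0.653 for Mfge8 and r = 0.642 for Pros1. It was r = 0.46 for Mertk, r = 0.199 for Axl, r = 0.117 for Timd4, r = -0.003 for Itgav and r = -0.204 for Tyro3. Within the 13 arrays it was r = 0.762 for Gas6, r = 0.678 for Mfge8 and r = 0.646 for Pros1. There Tyro3 had r = 0.689 and Mertk r = -0.228. The part of endothelial RNA in these levels was not tested.

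Itgav, the αv chain that pairs with several β chains to bind Mfge8 (probeset 10473281), was 10.34, 10.86, 9.97, 10.61 and 10.34 in day 30 mo-KCs and 10.35, 10.17 and 10.37 in day 15 mo-KCs, and ran from 9.89 to 10.63 in em-KCs. The groups overlapped, and the differences were 0.23 at day 30 (95% interval -0.03 to 0.48, adjusted p = 0.449 from limma) and 0.10 at day 15 (95% interval -0.21 to 0.40, adjusted p = 0.974 from limma).

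The split of day 30 mo-KC replicates in Mertk and Pros1 coincided with the sets of arrays, so the day 30 difference was fitted within each. For Axl the split was less clear, since replicate 1, of the 13-array set, also lay below all em-KC arrays. Within the 6 arrays (3 mo-KC against 3 WT em-KC arrays) the differences were -0.40 for Mertk (adjusted p = 0.107 from limma), -0.47 for Axl (adjusted p = 0.073 from limma) and -0.36 for Pros1 (adjusted p = 0.156 from limma), and the arrays of mo-KCs lay below those of em-KCs for all 3, as they did for 15.7% of all genes (27.4% were apart in either direction). Within the 13 arrays (2 mo-KC against 8 em-KC arrays) they were -0.03 for Mertk, -0.12 for Axl and -0.03 for Pros1, with adjusted p-values of 0.979, 0.892 and 0.986 from limma. Timd4 was the 1 member called in each set, where 4.15% of all genes were called within the 6 arrays and 0.326% within the 13.

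**Figure D4:**
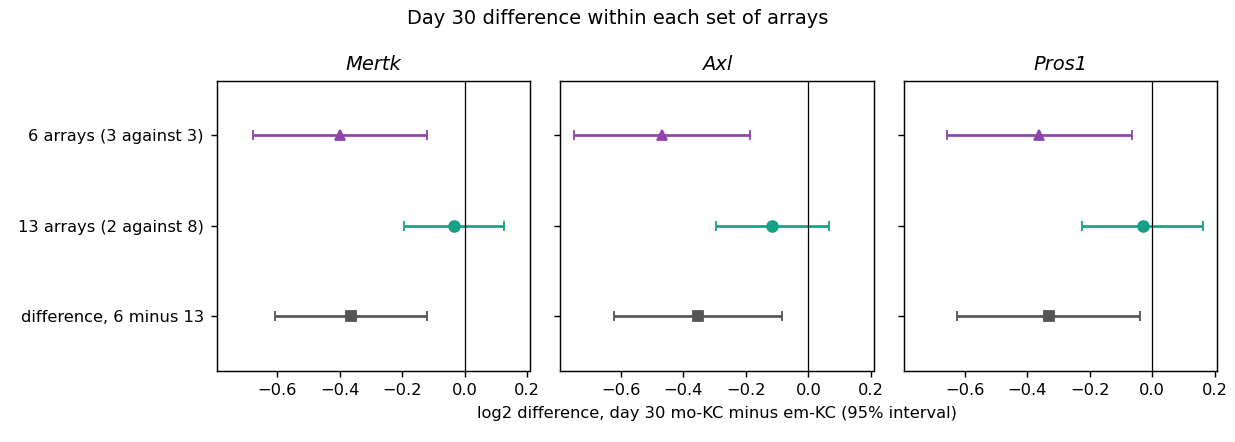
Log2 difference of day 30 mo-KCs from em-KCs (x axis) with 95% intervals for Mertk, Axl and Pros1, within the 6 arrays (triangles), within the 13 arrays (circles) and for the difference between the sets (squares). The estimates within the 6 arrays are -0.40, -0.47 and -0.36 and those within the 13 arrays -0.03, -0.12 and -0.03.

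The difference between the sets, tested in 1 fit, was -0.36 for Mertk (95% interval -0.61 to -0.12, adjusted p = 0.081 from limma), -0.35 for Axl (95% interval -0.62 to -0.08, adjusted p = 0.128 from limma) and -0.33 for Pros1 (95% interval -0.62 to -0.04, adjusted p = 0.196 from limma). None passed, in a test that called 4.72% of all genes. Markers moved with the same replicates. The mean of the 10 KC markers was 11.43 to 11.57 in day 30 replicates 3 to 5 and 11.65 to 11.70 in replicates 1 and 2, against 11.74 to 11.88 in em-KCs, and over the 19 arrays it correlated with Mertk at r = 0.891, Axl at r = 0.799 and Pros1 at r = 0.743. Within the 13 arrays these correlations were r = 0.486, r = 0.373 and r = 0.291 for the same genes. The mean of the endothelial markers was 9.16 to 9.60 in replicates 3 to 5 and 9.91 to 10.03 in replicates 1 and 2, and that of the hepatocyte markers 8.20 to 9.09 and 7.62 to 7.67. The WT em-KCs set against replicates 3 to 5 had hepatocyte means of 10.01 to 10.10, and 11 of the 14 hepatocyte markers were called lower in mo-KCs within the 6 arrays (median difference -1.38). With the hepatocyte mean as a covariate, Mertk (-0.30, adjusted p = 0.029 from limma), Axl (-0.29, adjusted p = 0.040 from limma) and Pros1 (-0.41, adjusted p = 0.006 from limma) passed beside Timd4, so 4 members were called in place of 1, in a fit that called 3.47% of all genes. With the endothelial mean they did not, at -0.23, -0.29 and -0.23. The hepatocyte mean was 8.02 to 8.89 in the 8 em-KC arrays of the 13-array set, so among em-KCs this covariate largely follows mouse source and array set. With it the difference of WT from colony em-KCs was 0.45 for Mertk and 0.42 for Pros1, neither called. Without it that difference was -0.02 and -0.26. How far sex, array handling or other cells enter the lower values was not tested.

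Among em-KCs themselves no member was called. Between WT and KC-DTR colony em-KCs, a comparison in which 16.5% of all genes were called, all 8 intervals lay within 1.5-fold (73.2% of all genes), and Mfge8 had the largest difference in size, -0.29 (95% interval -0.52 to -0.06, adjusted p = 0.075 from limma), with 1 of 8 members, and 31.5% of all genes, under an unadjusted p of 0.05. Mfge8 was 6.35, 5.89 and 6.26 in the WT arrays and 6.21 to 6.73 in the colony arrays. Between untreated KC-DTR em-KCs and littermate em-KCs limma called no gene at all (0% of 19938), with 756 genes (3.79%) and 1 member under an unadjusted p of 0.05. That member was Gas6, which was 7.67, 7.92 and 7.97 in KC-DTR arrays, against 7.89 to 8.59 in littermate arrays, a difference of -0.40 (95% interval -0.70 to -0.10, adjusted p = 1.00 from limma). Without the untreated littermate array, which had the highest endothelial markers, the difference was -0.23.

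To place the members, 60 other genes of apoptotic cell uptake were grouped by role, and 56 of them were measured. In limma none of the 56 was called at day 30 or day 15, and the methods' t-test also called 0 at both days. At an unadjusted p under 0.05, 10 of the 56 passed at day 30, all lower, against 13% of all genes (6.9% lower). At day 15, 2 passed, 1 of them lower, against 6.05% of all genes (3.06% lower). The median difference was -0.08 at day 30 and 0.003 at day 15, against -0.02 and -0.01 over all genes. In 49 of the 56 the 95% interval lay within 1.5-fold at each day.

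**Figure D5:**
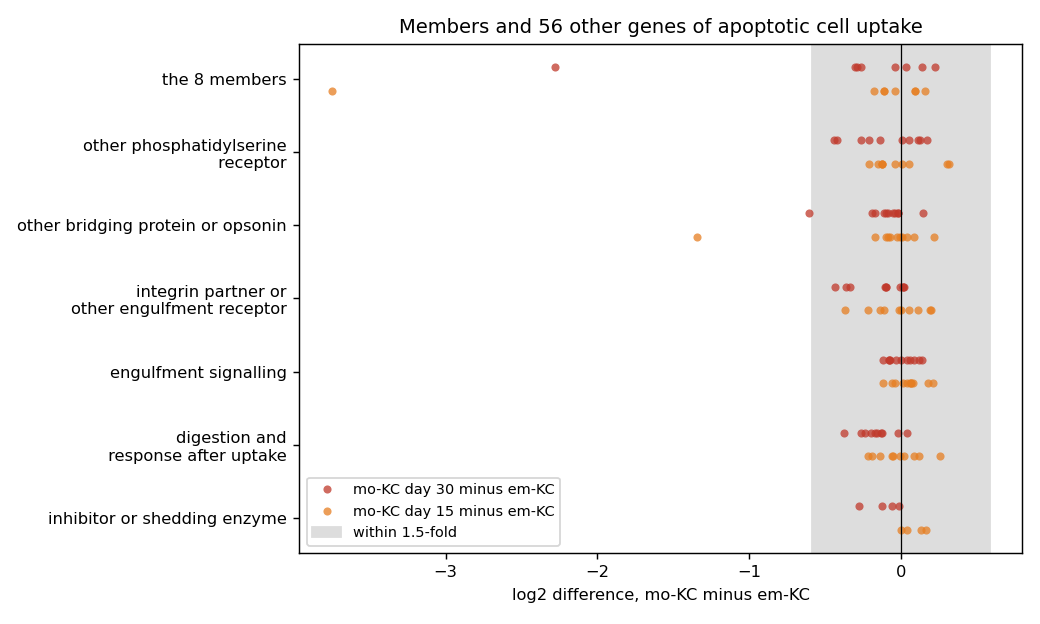
Log2 difference of mo-KCs from em-KCs (x axis) for the 8 members and the 56 other measured genes of apoptotic cell uptake by role (y axis), for day 30 (red, upper) and day 15 (orange, lower); the grey band marks 1.5-fold. Outside the band lie Timd4, at -2.28 and -3.75, and Apoh, at -0.61 and -1.35.

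Engulfment signalling, from the adaptor Crk and the Elmo and Dock proteins to the small GTPase Rac1, had no called gene: in all 11 measured genes the interval lay within 1.5-fold at both days, as in 91.1% and 87.8% of all genes, and Crk had the largest day 30 difference in size, 0.14. The 4 inhibitors and shedding enzymes were within 1.5-fold as well, with Sirpa, the receptor for the signal that protects living cells, at -0.27 at day 30 and not called. Among 10 other phosphatidylserine receptors the difference furthest from 0 at day 30 was that of Stab2, at -0.44 (adjusted p = 0.258 from limma), a receptor that also marks sinusoidal endothelium and stands in that marker list. Lrp1, a large engulfment receptor that binds calreticulin, differed by -0.44 at day 30 (adjusted p = 0.306 from limma), and Pparg, a lipid-activated nuclear receptor of the response after uptake, by -0.37 (adjusted p = 0.365 from limma).

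Of the other bridging proteins and opsonins, the 3 C1q chains, C1qa, C1qb and C1qc, chosen after their values were seen, had differences of -0.10 to -0.02 at day 30. Apoh, a plasma protein of hepatocytes that binds phosphatidylserine and is also in the hepatocyte marker list, was 5.34 to 7.65 in day 30 mo-KCs, 5.56 to 5.95 in day 15 mo-KCs and 6.18 to 8.81 in em-KCs, and its day 30 difference was -0.61 (adjusted p = 0.621 from limma). Within the sets of arrays Apoh was called at day 30, by -1.53 within the 6 arrays and -0.96 within the 13. The scavenger receptor gene Scarb1, chosen after its values were seen, was called within the 6 arrays, by -0.77, and differed by -0.05 within the 13.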

How the data were processed

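Kupffer cells were sorted from mouse livers, and the RNA of each of 19 samples was hybridised to 1 Affymetrix GeneChip Mouse Gene 1.0 ST array. The values the authors deposited are log2 intensities of probesets after RMA, that is, background correction, summarization and quantile normalization between arrays. The version of their software is not given in the sources used here. Values ran from 1.71 to 14.4, and none of 171 array pairs had identical values.

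Of 35556 probesets, 21789 were paired with 1 gene symbol, 1621 with several and 12146 with none. Only those with 1 symbol were used. The probeset with the highest mean was kept per gene, which left 19938 genes. Each member had 1 such probeset. Samples were grouped by their labels, and the array sets by whether Xist was above Eif2s3y. A limma 3.58.1 model (lmFit, then eBayes, R 4.3.3) held the 3 cell classes, and contrasts among conditions used a fit of all 7 conditions. Tests were two-sided, Benjamini-Hochberg adjustment ran over all genes, and the threshold was 0.05. The fit was tested on simulated data. Promoter windows came from RefSeq.

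The members and gene lists were chosen with earlier results of these data known. Named genes are the 8 members, in each role of the uptake list the gene with the largest day 30 difference in size, the 5 genes most correlated with Timd4, and check genes for cell identity; others are said to be chosen after their values were seen. Alternatives covered the em-KC arrays used, the array set (within each set and as a block), a dim-gene filter, centring, the variance model and array weights. They also covered the gene-by-gene t-test, a replicate block, marker covariates and leaving out each array. The test between array sets was chosen after the values of the arrays were seen. Same-numbered arrays deviated together only weakly (36 pairs, r from -0.12 to 0.15, median 0.02, 5 pairs above 0.1). Differently numbered arrays gave r from -0.16 to 0.14 (96 pairs, median -0.005, 3 pairs above 0.1). Numbers were not taken as pairs, although some pairing is not excluded.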

Additional observations from a re-analysis of the deposited data

How the results depend on the processing

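The Timd4 differences kept their sign and their calls in all 34 alternatives at day 30 (-2.38 to -2.13) and all 33 at day 15 (-3.85 to -3.61). Between the days Timd4 was called in 32 of 33 alternatives (1.32 to 1.62). The exception was the gene-by-gene t-test (1.46, adjusted p = 0.653, with 0 members and 0 genes called), which takes its spread from the mo-KC arrays alone. Members called at day 30, in place of 1, numbered 2 with the array set as a block, 2 with trend and robust eBayes and 4 with the hepatocyte covariate. The block called 2.58% of all genes and the hepatocyte covariate 3.47%, against 0.492% lower and 0.296% higher in the main fit. With trend and robust eBayes the count over all genes moved by no more than 1.5-fold. Leaving out each array gave 1 to 3 members, with 3 without day 30 replicate 2, where 316 genes were called. For WT against colony em-KCs leaving out each array gave 0 to 1, where Mfge8 passed without littermate DT day 15 replicate 2 or without WT replicate 1. The replicate block changed no member's call and was run on numbers that were not taken as pairs.

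Counts over all genes moved more. At day 30, in place of 157, limma called 63 against the 3 untreated KC-DTR arrays and 74 against the 4 littermates after DT. It called 65 within the 13 arrays and 827 within the 6. With the set as a block it called 514, with the hepatocyte covariate 691 and with the replicate block 49. The gene-by-gene t-test called 84. Leaving out each array, limma called 93 (without day 30 replicate 3) to 316 (without day 30 replicate 2). At day 15, in place of 100, it called 64 against the untreated KC-DTR arrays, 231 within the 13 arrays, 168 with the set as a block, 242 with array weights and, by the t-test, 66, and 57 (without day 15 replicate 3) to 111 leaving out each array. Between the days, in place of 4, it called 8 with the set as a block and 8 with the hepatocyte covariate. For WT against colony em-KCs it called 216 with the hepatocyte covariate in place of 3289. Against untreated KC-DTR em-KCs at day 30, in place of 73, it called 120 with the hepatocyte covariate, 48 with the replicate block and 32 (without KC-DTR replicate 3) to 96 leaving out each array, and at day 15, in place of 78, 138 with array weights and 48 (again without KC-DTR replicate 3) to 86 leaving out each array.

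Differences that were not called changed sign as follows, and the cause was not tested. At day 30 Mfge8 was -0.012 with array weights, -0.033 against the 4 littermates after DT, -0.030 against the 8 colony arrays and -0.035 with the hepatocyte covariate, and Tyro3 was 0.061 against the untreated KC-DTR arrays. At day 15 Itgav was -0.088 and Tyro3 0.062 against those arrays, and with the hepatocyte covariate Mfge8 was -0.019 and Tyro3 0.0065. Between the days Gas6 was 0.062, Mfge8 0.042 and Pros1 0.015 with the set as a block, Gas6 0.015 with the hepatocyte covariate, Gas6 0.12 and Mfge8 0.032 with the endothelium covariate, Gas6 0.016 and Mertk 0.0016 with the replicate block, Tyro3 0.0096 after centring, and Axl 0.030, Gas6 0.087, Mertk 0.084 and Pros1 0.14 within the 13 arrays. For WT against colony em-KCs with the hepatocyte covariate Gas6 was 0.036, Mertk 0.45, Pros1 0.42, Timd4 0.16 and Tyro3 -0.027. For KC-DTR against littermate em-KCs Mertk was 0.022 and Timd4 0.011 after centring, and Mertk 0.012 with the replicate block. Leaving out each array gave ranges across 0 at day 30 for Mfge8 (-0.011 to 0.073) and Tyro3 (-0.087 to 0.0017), at day 15 for Tyro3 (-0.070 to 0.0041), and between the days for Gas6 (-0.095 to 0.053), Mfge8 (-0.13 to 0.032) and Tyro3 (-0.051 to 0.038). The same held for WT against colony em-KCs for Timd4 (-0.061 to 0.026) and Tyro3 (-0.044 to 0.23), for KC-DTR against littermate em-KCs for Mertk (-0.047 to 0.019), Pros1 (-0.089 to 0.043) and Timd4 (-0.085 to 0.076), and against untreated KC-DTR em-KCs for Itgav at day 30 (-0.068 to 0.16) and day 15 (-0.16 to 0.035).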
